A study of Mus musculus with 36 samples.

Results

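Cars, Aars and Yars encode the cytosolic cysteinyl-, alanyl- and tyrosyl-tRNA synthetases, and 3 of the 27288 rows of an RNA-seq table of mouse primary cortical neuron cultures were taken to hold them. The rows were chosen because their counts were higher in cultures given homocysteic acid (HCA), so the HCA differences of these 3 rows are descriptions here and carry no test. The gene names are inferences: the table's row identifiers appear to be displaced by 1 transcript in identifier order, so that a row holds the transcripts standing just before those of the gene it is labelled with. The row taken as Cars is labelled Cd164l2 (ENSMUSG00000028865), that taken as Aars is labelled Cdh15 (ENSMUSG00000031962), and that taken as Yars is labelled Zranb2 (ENSMUSG00000028180).

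The cultures came from E15 pups of the outbred CD1 strain, were grown for 24 h and then treated for 6 h. Each of 6 culture batches gave 1 library for each of 6 groups: cultures with no addition (control), with sodium selenite at a dose of 0.1 or of 1, with 5 mM HCA, and with HCA plus either dose of selenite. Selenite is in mM per the sample labels but in micromolar per the series text, so the doses carry no unit below. HCA stands for homocysteic acid in the sample labels. This relative of glutamate is known to inhibit the import of cystine, whereas the series text describes HCA as an inhibitor of ferroptosis, an iron-dependent form of cell death. The labels do not mention a sort of the cultured cells, and do not say how many pups or litters gave a batch.

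Aminoacyl-tRNA synthetases join each amino acid to its tRNA and so supply the ribosome with charged tRNAs. When amino acids run short, uncharged tRNA activates the kinase Gcn2, phosphorylation of the initiation factor eIF2 slows translation in general, and the transcription factor Atf4 is made and switches on genes for amino acid transport, amino acid synthesis and tRNA charging. Cysteinyl-tRNA synthetase handles the amino acid whose oxidised form, cystine, neurons and glia import through the exchanger that HCA is known to block.

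Atf4 and its C/EBP partners bind a C/EBP-ATF response element, whose core was searched as TGATGNAA on both strands of the RefSeq promoters (GRCm38.p6; 250 bases before to 50 after each start, 300 in all). The windows below are shown because they hold, for each synthetase gene with a match, the match nearest to its start. Each window has 30 bases, reads 5′ to 3′ on the gene's own strand and has the match in capitals. A match on the opposite strand therefore appears as its reverse complement.
Aars, chr8:111033840-111033869: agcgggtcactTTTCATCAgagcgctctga
Yars, chr4:129189895-129189924: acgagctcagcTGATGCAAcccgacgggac
Iars, chr13:49682126-49682155: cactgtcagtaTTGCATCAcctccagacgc
Tars, chr15:11399655-11399684: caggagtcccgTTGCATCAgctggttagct
Gars, chr6:55037960-55037989: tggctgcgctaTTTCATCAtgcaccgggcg
Tars lies on the minus strand of the genome and the other 4 genes on the plus strand.

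The first base of the match shown stood at 10 from the RefSeq start in Aars, at 4 in Yars, at 8 in Iars, at -15 in Tars and at -30 in Gars. The letters were TGATGCAA in Yars, Iars and Tars and TGATGAAA in Aars and Gars. The GENCODE start of the transcript in the Aars row lies 60 bases downstream of the RefSeq start, and that of the Yars transcript 143 bases upstream of it. The match shown thus lies before the GENCODE start in Aars and after it in Yars. The promoter table has no entry for Cars. Of all 32851 promoters, 1304 (3.97%) held the core. It was present in Aars, Yars and 3 of the 11 other cytosolic synthetase genes with a promoter in the table, and in 0 of 14 mitochondrial ones. Gars and Kars, which also serve mitochondria, were counted as cytosolic. These counts describe letters, not bound sites. The palindromic cAMP response element TGACGTCA, held by 1.79% of all promoters, was in 0 of these 27 genes.

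The rows differ in how cleanly they stand for a gene. Aars lies on chr8:111033144-111057664 (GRCm38, GENCODE vM21, plus strand). Its row holds 1 of its 2 coding transcripts, with 21 exons and 5750 bases, and nothing else. No other row of the table holds a coding Aars transcript. Cars lies on chr7:143557230-143600090 on the minus strand. Its row holds 1 of its 3 coding transcripts, with 22 exons and 2462 bases, beside 5 transcripts of other genes that are not coding. Yars lies on chr4:129189760-129219607 on the plus strand. Its row holds its 1 coding transcript of 13 exons and 2909 bases together with coding transcripts of Zranb2, S100pbp, 4930432M17Rik and Arhgap29 and 3 transcripts that are not coding, so the Yars row is a sum over 5 coding genes.

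Libraries held 34.3 to 56.9 M estimated counts. Rows taken as ribosomal RNA, by annotated type and a list of loci written by hand, took 1.69% to 85.7% of them, with a median of 78.1% in control and 44.7% in HCA. After trimmed-mean (TMM) scaling the effective library size ranged from 1.34 to 224 M. It was lowest in control replicates 5 and 6 and selenite 0.1 replicate 5, and the counts of the Cars row there were 28, 40 and 13. Levels below are CPM, counts scaled to that effective size in units of 1 M. They are not divided by length, so levels are not compared between rows. The neuronal tubulin Tubb3 was at 767 ± 89.1 CPM in control and 987 ± 164 in HCA (SD, n = 6 each). Of 12 neuronal markers, 7 had a row of 1 coding gene, Tubb3 among them. Their sum ran from 718 to 951 CPM in control (median 834) and from 867 to 1276 in HCA, and Tubb3 made up most of it. Of 6 microglial markers 3 had a row of 1 coding gene, and their medians over all libraries were 1.58 CPM for Cx3cr1, 0.64 for Aif1 and 0 for Itgam. Summed, these 3 ran from 2.45 to 3.99 CPM in control and from 1.25 to 3.47 in HCA.

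The Cars row was higher with HCA at every selenite level. In control the 6 libraries ran from 7.41 to 16.2 CPM with a median of 11.6, and in HCA from 27.0 to 35.1 with a median of 31.4. With selenite 0.1 they ran from 9.72 to 16.0 (median 12.6) without HCA and from 24.7 to 34.8 (median 30.1) with it. With selenite 1 they ran from 12.4 to 14.4 (median 13.2) without HCA and from 29.0 to 32.6 (median 30.5) with it. All 18 HCA libraries lay above all 18 others, and the lowest of them was 1.53 times the highest library without HCA. The fitted difference was 1.44 ± 0.14 (log2, SE, n = 6 and 6) without selenite, a 2.71-fold rise, 1.24 ± 0.14 at selenite 0.1 and 1.20 ± 0.14 at selenite 1.

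The Aars row was also higher with HCA at every selenite level. Control libraries ran from 55.6 to 89.7 CPM with a median of 77.0, and HCA libraries from 137 to 171 with a median of 150. Selenite 0.1 libraries ran from 44.1 to 98.6 (median 76.5) and those with HCA besides from 138 to 171 (median 151). Selenite 1 libraries ran from 72.8 to 117 (median 82.1) and those with HCA besides from 135 to 172 (median 148). No HCA library overlapped a library without HCA, the nearest pair being 1.15-fold apart. The fitted difference was 0.98 ± 0.15 (log2, SE, n = 6 and 6) without selenite, a 1.98-fold rise, 1.01 ± 0.15 at selenite 0.1 and 0.74 ± 0.15 at selenite 1.

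The row that holds Yars among 5 coding genes was higher with HCA as well. Control libraries ran from 36.2 to 52.3 CPM with a median of 46.1, and HCA libraries from 80.5 to 90.4 with a median of 84.8. Selenite 0.1 libraries ran from 40.4 to 57.0 (median 49.0) and those with HCA besides from 70.8 to 99.6 (median 83.4). Selenite 1 libraries ran from 43.1 to 67.9 (median 53.8) and those with HCA besides from 76.0 to 98.5 (median 80.5). The 2 sets of 18 libraries again did not overlap, but the lowest HCA library was only 1.04 times the highest without HCA. The fitted difference was 0.90 ± 0.12 (log2, SE, n = 6 and 6) without selenite, a 1.87-fold rise, 0.79 ± 0.12 at selenite 0.1 and 0.62 ± 0.12 at selenite 1.

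Over the 25588 rows tested, edgeR's quasi-likelihood test called 0.227% for HCA against control, 0.16% at selenite 0.1, 0.152% at selenite 1 and 1.61% for the mean of the 3 differences. Every HCA library lay above every other library in 28 rows (0.109%), the 3 chosen rows among them. Since the rows were chosen on this difference, nothing is read from their place in that background.

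**Figure D1:**
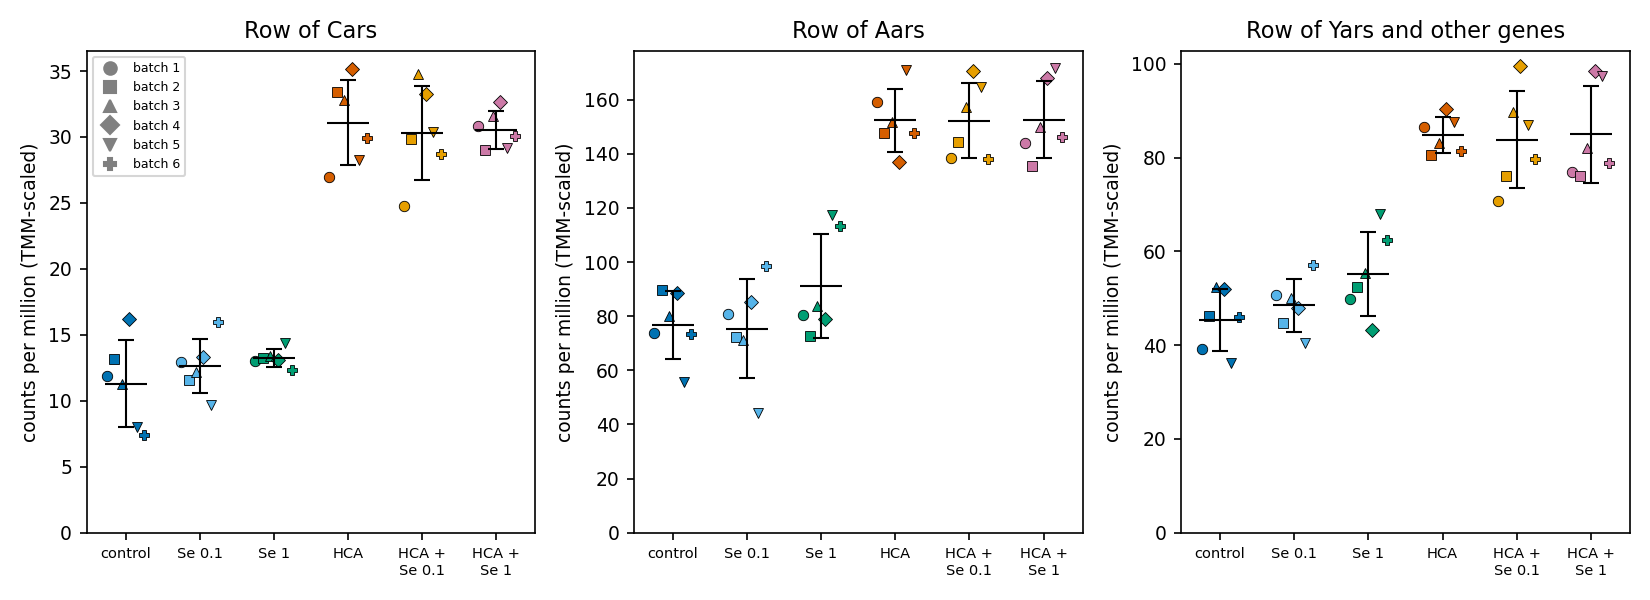
CPM (vertical axis, linear from 0) of the Cars, Aars and Yars rows in each of 36 libraries, by group (horizontal axis; Se is selenite). Marker shapes are culture batches, and bars are the mean and SD of 6 libraries; in all 3 panels the 18 HCA libraries lie above the 18 others, by the narrowest margin in the Yars row.

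Some markers of other cells moved with HCA too, in lists that share no gene with the 3 rows. For the mean HCA difference edgeR called 0.512% of all rows lower and 1.1% higher. Of 4 astrocyte markers tested, 2 were lower (Slc1a3 by -0.68 ± 0.18, adjusted p = 0.0389, and Slc1a2 by -0.51 ± 0.13, edgeR adjusted p = 0.0298). Of 3 markers of the oligodendrocyte lineage tested, 1 was lower, the transcription factor Olig2 (-0.71 ± 0.14, edgeR adjusted p = 0.0040), while Cspg4 stood at 0.27 ± 0.27 and Sox10 at -0.18 ± 0.37. Of 7 neuronal markers 1 was higher, the GABA-synthesising enzyme Gad1 (0.85 ± 0.15, edgeR adjusted p = 7.7e-04). The Slc1a3 call ended without batch 1, 2, 3, 4 or 6, that of Slc1a2 without batch 1, 3, 4 or 6 and that of Olig2 without batch 6 (edgeR adjusted p up to 0.29, 0.18 and 0.052). The summed astrocyte markers ran from 26.9 to 44.3 CPM in control and from 13.7 to 33.5 in HCA. The sum of the 4 progenitor markers Nes, Pax6, Hes5 and Vim ran from 67.2 to 115 and from 45.5 to 85.6. Singly, these 4 had mean HCA differences from -0.87 to 0.76 (log2), with 1 above 0. Of the 4, edgeR called 0, with 2 at an unadjusted p under 0.05, DESeq2 called 2 and limma voom 0. The 3 tested markers of meninges and fibroblasts, Col1a2, Col3a1 and Lum, did not pass edgeR's test. Their sum spread widely within groups, from 4.87 to 169 CPM in control (median 9.77) and from 5.29 to 189 in HCA (median 11.1). In bulk RNA, fewer cells of a type and less RNA per cell cannot be told apart. The part of these shifts in the synthetase differences was not tested.

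Within culture batches the direction did not vary. The HCA library exceeded its partner of the same batch and selenite level in 18 of 18 pairs for each of the 3 rows. The log2 difference ran from 0.84 to 2.01 for Cars, from 0.37 to 1.90 for Aars and from 0.34 to 1.27 for Yars. The largest values came from batches 5 and 6, where the partner was 1 of the 3 libraries of lowest effective size. The smallest came from batch 6, at selenite 0.1 for Cars and at selenite 1 for Aars and Yars. Without those 3 libraries the fitted HCA difference without selenite was 1.25 for Cars, 0.88 for Aars and 0.84 for Yars.

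**Figure D2:**
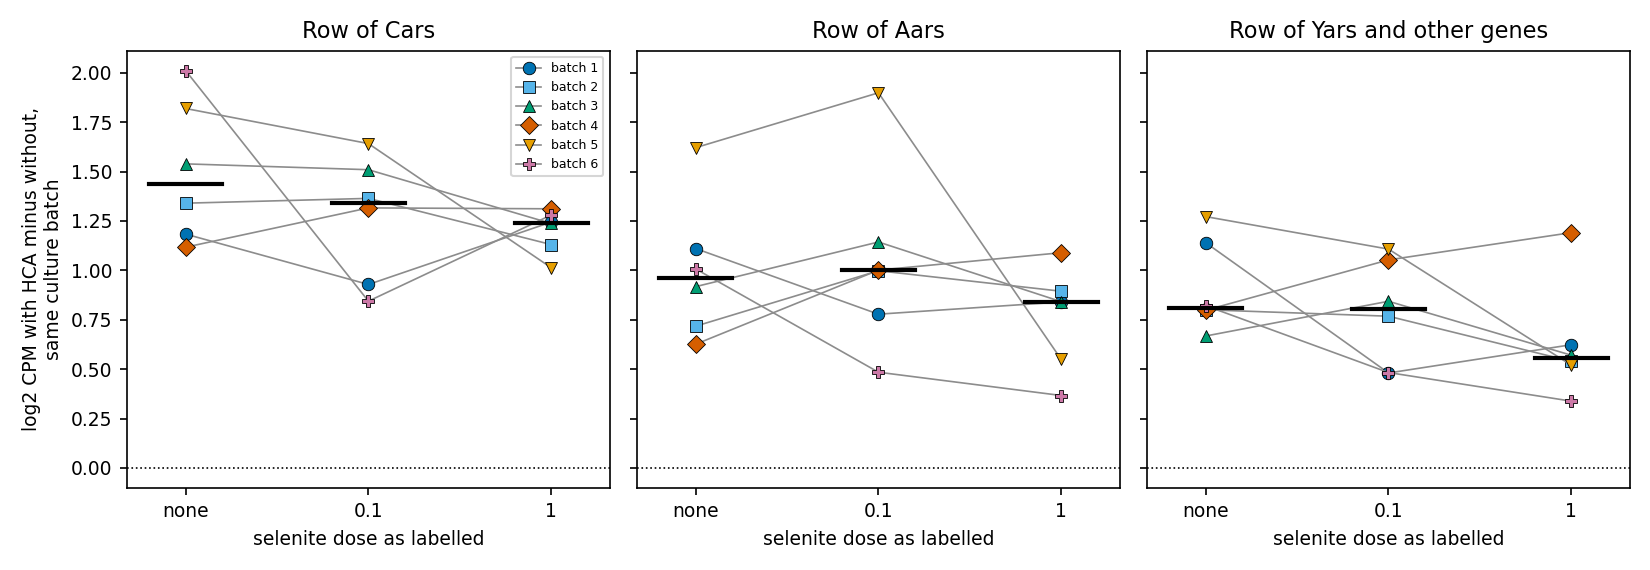
Difference in log2 CPM between the HCA library and the library without HCA of the same culture batch (vertical axis), at each selenite level (horizontal axis, dose as labelled). Lines join a batch and black bars are medians of 6 batches; all differences lie above 0, and batches 5 and 6 give the largest.

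The groups with selenite ask whether selenite moved the level of these rows, or the size of their HCA difference. Averaged over cultures with and without HCA, selenite 0.1 changed the Cars row by 0.06 ± 0.10 (log2, SE; 95% interval -0.13 to 0.26), the Aars row by -0.01 ± 0.11 (-0.23 to 0.20) and the Yars row by 0.04 ± 0.09 (-0.14 to 0.22). Selenite 1 changed them by 0.09 ± 0.10 (-0.10 to 0.29), 0.12 ± 0.10 (-0.09 to 0.34) and 0.14 ± 0.09 (-0.03 to 0.32). None of the 6 passed edgeR's quasi-likelihood test with Benjamini-Hochberg adjustment over all rows (each adjusted p rounds to 1.00), nor by DESeq2 or limma voom, and 0 had an unadjusted p under 0.05.

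The HCA difference was smaller by 0.20 ± 0.19 for Cars at selenite 0.1 than without selenite (log2, SE; 95% interval of the change -0.59 to 0.19), and smaller by 0.24 ± 0.19 at selenite 1 (-0.62 to 0.15). For Aars the change was 0.02 ± 0.21 at selenite 0.1 (-0.41 to 0.45) and -0.24 ± 0.21 at selenite 1 (-0.67 to 0.19). For Yars it was -0.12 ± 0.17 (-0.47 to 0.23) and -0.28 ± 0.17 (-0.63 to 0.07). None passed edgeR's test (each adjusted p rounds to 1.00; 0 at an unadjusted p under 0.05, and 0 by DESeq2 or limma voom), and intervals that reach -0.67 do not show that the HCA difference was alike at all selenite levels. The 3 rows share the libraries of every group, and rows put forward for a large difference between HCA and control favour a smaller difference elsewhere, so the 5 negative signs among 6 are not separate observations. Under 14 alternative fits the Cars change at selenite 1 ran from -0.33 to -0.04. The Aars change at that dose ran from -0.36 to -0.08 and the Yars change from -0.39 to -0.19.

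Selenite was also compared within cultures of 1 HCA state. Selenite 1 against control was 0.21 ± 0.14 for Cars, 0.24 ± 0.15 for Aars and 0.28 ± 0.12 for Yars, with 95% intervals that reach 0.49, 0.55 and 0.53. Selenite 1 added to HCA differed from HCA alone by -0.03 ± 0.13, 0.00 ± 0.15 and 0.00 ± 0.12 (log2, SE). None of these passed edgeR's test (adjusted p from 0.88 to 1.00), and 1 of the 6, Yars for selenite 1 against control, had an unadjusted p under 0.05; DESeq2 and limma voom called 0. For the averaged effects edgeR called 0% of all rows at either dose. An unadjusted p under 0.05 was reached by 689 rows at selenite 0.1 and 845 at selenite 1, DESeq2 called 3 rows and 1, and limma voom called 0 at both. For the change of the HCA difference edgeR again called 0%, with 629 and 594 rows at an unadjusted p under 0.05, 4 and 8 rows called by DESeq2 and 0 by limma voom.

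The 3 rows were also set against each other within each library. The ratio of Cars to Aars counts within a library does not depend on library scaling. It ran from 0.10 to 0.22 without HCA (median 0.16) and from 0.17 to 0.26 with HCA (median 0.21), and it was higher with HCA in 17 of 18 pairs of the same batch and selenite level, by 0.39 ± 0.29 on average (log2, SD over pairs). The ratio of Yars to Aars ran from 0.51 to 0.91 without HCA (median 0.62) and from 0.51 to 0.66 with it (median 0.55), and was higher with HCA in 5 of 18 pairs (-0.16 ± 0.23). The ratio of Cars to Yars was higher in 18 of 18 pairs (0.55 ± 0.28). The ranges with and without HCA overlapped for each of the 3 ratios. These ratios come from the contrast used to choose the rows and are given without a test.

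**Figure D3:**
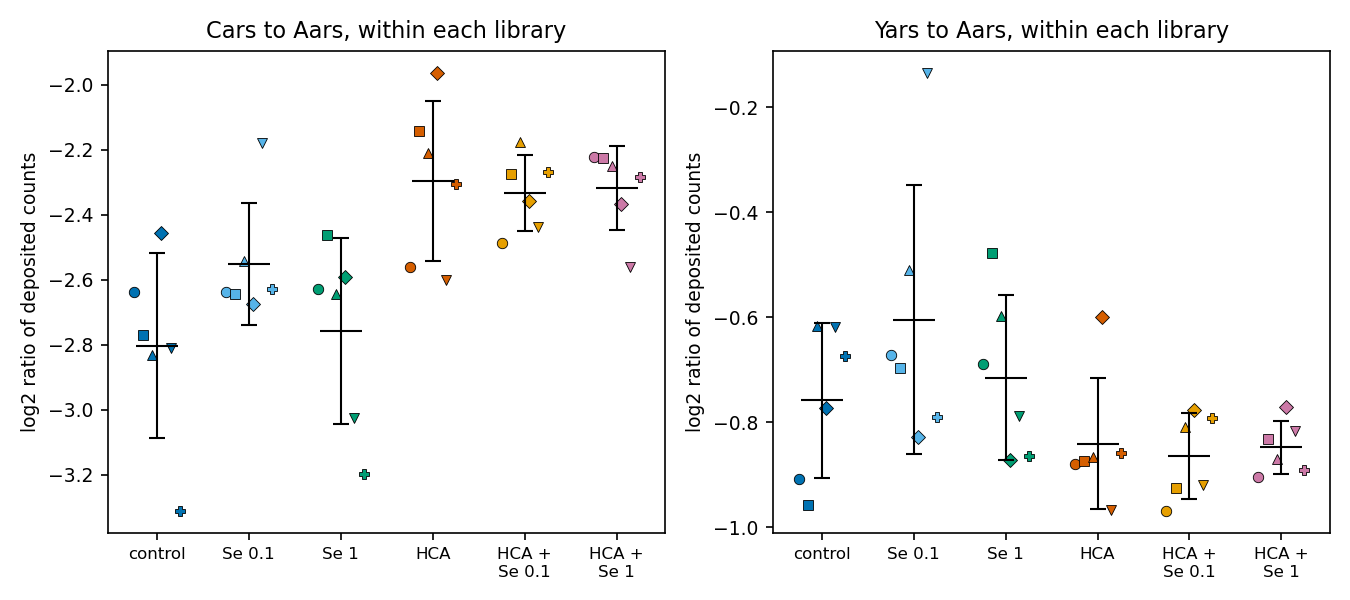
Log2 ratio of the deposited counts of Cars to Aars and of Yars to Aars within each library (vertical axes, which do not start at 0), by group (horizontal axis; Se is selenite). Marker shapes are culture batches as in the plot of CPM by group, and bars are the mean and SD of 6 libraries; Cars to Aars has a median of 0.16 without HCA and 0.21 with it as plain ratios, and the ranges overlap.

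Libraries of a group also varied together. With group means subtracted, Pearson's r over 36 libraries was 0.78 between Aars and Yars, 0.56 between Cars and Aars and 0.50 between Cars and Yars. Without the 3 libraries of lowest effective size these were 0.77, 0.35 and 0.45 over 33 libraries. The same deviations had an r with effective library size of 0.52 for Cars, 0.47 for Aars and 0.37 for Yars, and of 0.27, 0.05 and 0.19 without the 3 libraries. The points share libraries, batches and scaling, and the part of depth was not tested. The pooled SD of log2 CPM within groups was 0.22 for Cars, 0.24 for Aars and 0.18 for Yars.

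Over all 36 libraries, among 8998 rows with coding transcripts of 1 gene (8999 for Yars), the row most like Cars was Aars (r = 0.93), followed by the transporter heavy chain Slc3a2 (0.91), the alanine aminotransferase Gpt2 (0.89), the transcription factor Nfil3 (0.87) and Hsd17b12, an enzyme of fatty acid elongation (0.87). The rows most like Aars were Slc3a2 (0.96), Cars (0.93), Aldh18a1, an enzyme of proline synthesis (0.92), Nfil3 (0.89) and Hsd17b12 (0.87). Those most like Yars were Aars (0.96), Cars (0.93), Nfil3 (0.93), Slc3a2 (0.92) and the ubiquitin ligase Siah2 (0.88). These r values include the HCA difference by which the 3 rows were chosen. A high r with other rows that rise with HCA therefore follows in part from the choice. With group means subtracted the lists changed entirely. Aars then went with Snd1, Ccar2, Gsk3a, Taf6 and Bap1 (r from 0.91 to 0.93), and Yars with Armc6, Ppp1r11, Tbrg1, Atp6v0b and Gps1 (0.85 to 0.91). Cars went with Anapc16, Mid1, Idnk, Wdr45 and Oaz1 (0.79 to 0.85), whose rows averaged 1.03 to 3.03 CPM. None of these 15 rows passed edgeR's test for the mean HCA difference (2 at an unadjusted p under 0.05, 0 by DESeq2 or limma voom).

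Other rows of the same genes were not used in the choice. They come from the same libraries, and the sharing of reads between transcripts of 1 gene was not tested. These rows are therefore not an independent check. The row labelled Phlda2 holds another coding Cars transcript, of 23 exons and 3222 bases, with Olfr1308 and Pnpla6. It was at 3.71 ± 1.53 CPM in control and 8.38 ± 1.92 in HCA (SD, n = 6 each) and rose by 1.38 ± 0.15 for the mean HCA difference (log2, SE; edgeR adjusted p = 7.3e-08), higher in 18 of 18 pairs. The row labelled Ubr1 holds the third coding Cars transcript, of 5 exons and 539 bases, with Mcm7 and the abundant neuronal gene Snap25, and stood at -0.15 ± 0.14 (edgeR adjusted p = 0.79, higher in 7 of 18 pairs). So of 2 other rows with a coding Cars transcript 1 was called higher, against 1.1% of all rows called higher. Of 8 rows with a Cars transcript that is not coding, 1 rose (1.42, edgeR adjusted p = 4.1e-04). It is a low row, with a median of 31 counts. Of 5 rows with an Aars transcript that is not coding and 7 with such a Yars transcript, none passed by edgeR. Their lowest edgeR adjusted p was 0.052 and 0.12. At an unadjusted p under 0.05 there were 2 and 3, and DESeq2 and limma voom each called 2 Aars rows and 0 Yars rows.

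For the Yars row the other coding genes in the sum were followed in their remaining rows. Zranb2, an RNA-binding splicing protein, had 3 other rows with a coding transcript, S100pbp 5, Arhgap29 4 and 4930432M17Rik 1. These are 12 distinct rows. None passed edgeR for the mean HCA difference (log2 from -0.57 to 1.23, lowest adjusted p = 0.13), 1 had an unadjusted p under 0.05, DESeq2 called 1, lower, and limma voom 0. Whether Yars alone carries the rise of its row cannot be told from the table. Under the identifiers of the genes themselves, the rows labelled Cars, Aars and Yars stood at 0.23 ± 0.09, 0.23 ± 0.13 and 0.14 ± 0.14 (log2, SE), and none passed (edgeR adjusted p = 0.28, 0.51 and 0.80; 1 at an unadjusted p under 0.05, 0 by DESeq2 or limma voom).

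Of the 17 other cytosolic synthetase genes, 8 had a tested row of 1 coding gene. Only Iars, the isoleucyl-tRNA synthetase, passed among these 8, against 1.1% of all rows called higher. It stood at 10.8 ± 7.75 CPM in control and 26.5 ± 4.22 in HCA (SD, n = 6 each) and rose by 1.04 ± 0.26 for the mean HCA difference (log2, SE; edgeR adjusted p = 0.027), higher in 18 of 18 pairs. Leaving out batch 1, 3, 4, 5 or 6 ended that call (edgeR adjusted p from 0.052 to 0.16). Other rows with a coding Iars transcript were low, with median counts of 9, 26.5 and 32.5, the last in a row of 3 coding genes. They stood at 0.96 ± 0.37, -1.17 ± 0.83 and -0.12 ± 0.46 and did not pass (edgeR adjusted p = 0.23, 0.66 and 0.98). The median of the 8 was 0.25, with 6 of them above 0, against a median of 0.03 over all rows. Mars (0.40 ± 0.24), Lars (0.42 ± 0.14), Hars (0.19 ± 0.09), Farsb (0.15 ± 0.11), Vars (0.31 ± 0.29), Qars (-0.35 ± 0.43) and Dars (-0.37 ± 0.15) did not pass. The Qars and Vars rows were near the floor, with medians of 0.78 and 1.10 CPM and a lowest value of 0. Rows that hold these genes with others went in both directions, from -0.22 to 0.32 for Qars and from -0.34 to 0.37 for Vars. None of those passed by edgeR.

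A wider view takes every row with a coding synthetase transcript, a set added after these data were seen. The value of a row that sums several genes belongs to none of them singly. Of 47 other cytosolic rows, 8 were higher and 0 lower by edgeR, against 1.1% and 0.512% of all rows. Of lower rows there were 3 at an unadjusted p under 0.05, and DESeq2 and limma voom called 1 each. Besides the Phlda2 and Iars rows, the 8 higher rows hold Mars (1.55 ± 0.22, edgeR adjusted p = 1.9e-05, with 5 other coding genes) and Nars (0.80 ± 0.11, edgeR adjusted p = 2.2e-05, in a row of 6 coding genes). Another Nars row, of 3 coding genes, stood at -0.10 ± 0.22 and did not pass. A Mars row of 3 coding genes stood at 0.01 ± 0.14 and the row of Mars alone at 0.40 ± 0.24, and neither passed. The higher rows also hold Gars (0.76 ± 0.08, edgeR adjusted p = 1.8e-07, with Hnrnpa3 and Macf1) and Tars (0.57 ± 0.13, edgeR adjusted p = 0.015, with Trim9). Sars is in the rows labelled Ptpn5 (0.46 ± 0.11, edgeR adjusted p = 0.016, 5 coding genes) and Trp53i11 (0.42 ± 0.08, edgeR adjusted p = 0.0014, with Tspan18). The seryl-tRNA synthetase Sars charges both serine tRNA and the tRNA on which selenocysteine is made. Its 2 remaining rows stood at 0.10 ± 0.11 and 0.11 ± 0.14 and did not pass. The Gars, Mars and Nars rows were higher in 18 of 18 pairs. The Tars and Ptpn5 calls each ended under 4 of 14 alternatives, with adjusted p up to 0.11 and 0.080.

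Gars and Kars, counted here as cytosolic, also serve mitochondria. The other mitochondrial synthetases are separate genes that charge tRNAs inside the organelle. Of 17 genes 6 had a tested row of 1 coding gene, and 1 passed by edgeR, against 0.512% of all rows called lower: Cars2, the mitochondrial cysteinyl-tRNA synthetase, fell by 0.87 ± 0.15 for the mean HCA difference (log2, SE; adjusted p = 5.2e-04). The Cars2 row was at 3.88 ± 1.48 CPM in control and 2.67 ± 0.40 in HCA (SD, n = 6 each), and was higher with HCA in 1 of 18 pairs. Taken singly, its HCA difference passed at selenite 1 (-1.21 ± 0.26, edgeR adjusted p = 0.033) but not without selenite (-0.54 ± 0.26, 0.63) or at selenite 0.1 (-0.86 ± 0.26, 0.40), and the change of that difference, which edgeR called in 0% of all rows, passed at neither dose. It is a low row, with a median of 145 counts. A second row with Cars2 and 5 other coding genes stood at 0.08 ± 0.21 and did not pass. The paralogues Aars2 and Yars2 had rows shared with other genes alone: Aars2 with Bdh1 stood at 0.17 ± 0.11 and the 3 Yars2 rows at -0.11 ± 0.22, 0.02 ± 0.26 and 0.17 ± 0.22, none of which passed. Over the 37 rows with a coding mitochondrial synthetase transcript, 1 was higher (Sars2 with Dpf3 and Zmynd11, 0.53 ± 0.14, edgeR adjusted p = 0.048, a call that ended under 9 of 14 alternatives) and 1 lower, with a median of -0.04.

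**Figure D4:**
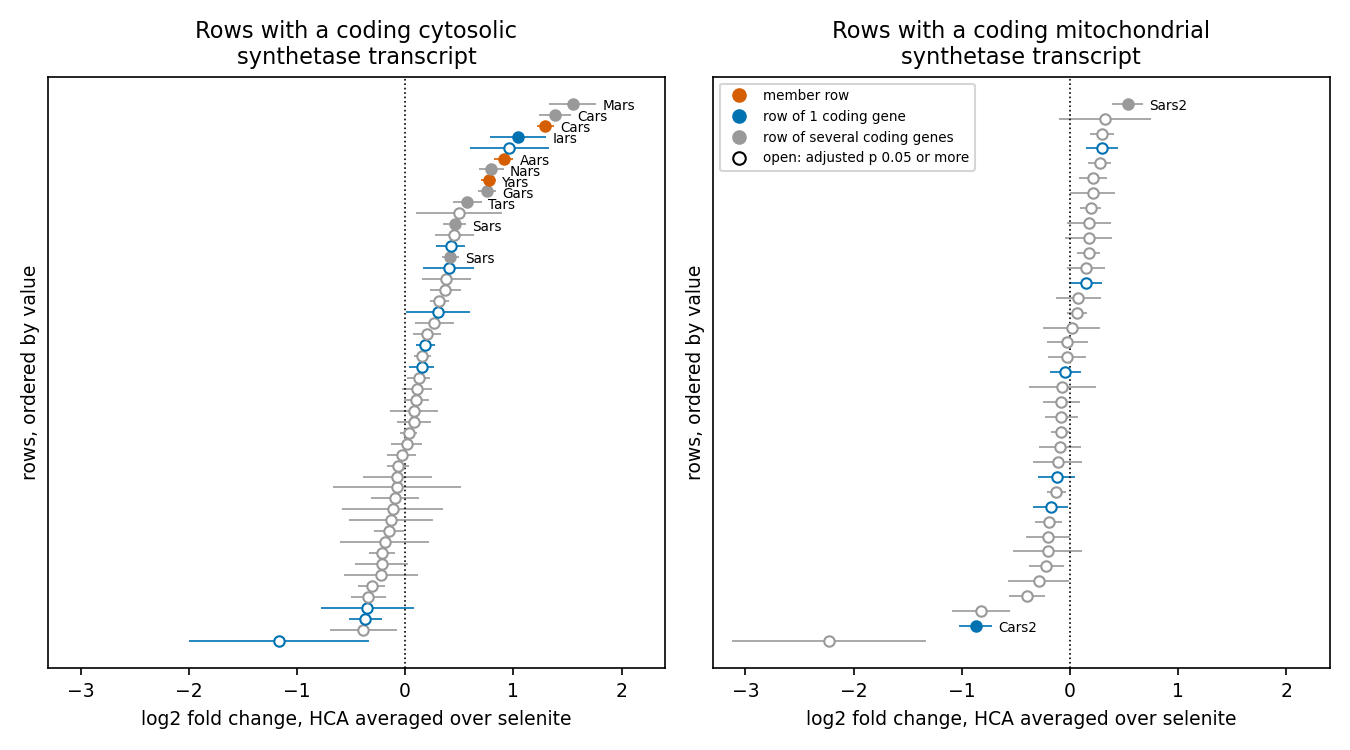
Log2 fold change with HCA, averaged over selenite levels, with its SE (horizontal axis), for each row with a coding transcript of a cytosolic (left) or mitochondrial (right) synthetase, ordered by value (vertical axis). Filled points have an edgeR adjusted p under 0.05 and are named by the synthetase they hold; 8 of the 47 cytosolic rows beside the 3 chosen ones lie higher and 0 lower, against 1 and 1 of 37 mitochondrial rows.

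Of 33 genes of the amino acid arm of the integrated stress response, 11 had a tested row of 1 coding gene, and 6 of these 11 rose with HCA by edgeR, against 1.1% of all rows. The calcium-regulating glycoprotein Stc2 rose by 1.85 ± 0.16 (adjusted p = 4.9e-10), and the translation repressor Eif4ebp1 by 1.54 ± 0.13 (adjusted p = 3.3e-10). Shmt2, which makes glycine and one-carbon units in mitochondria, rose by 0.94 ± 0.14 (edgeR adjusted p = 3.0e-05), Aldh18a1 by 0.89 ± 0.12 (5.3e-06), Slc3a2 by 0.76 ± 0.07 (2.7e-09) and the mTORC1 inhibitor Ddit4 by 0.68 ± 0.13 (0.0020). Atf3, Atf5, Pycr1, Slc6a9 and Cbs did not pass. Atf4 itself, Asns, Chac1, Trib3, Ddit3, Sesn2, Psat1 and Phgdh had no tested row of 1 coding gene. The median of the 11 tested was 0.76. Of these, 10 lay above 0, and 1 of the 5 that did not pass stood at -1.43. This list was chosen with earlier results of these data known and is not independent evidence of its direction.

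Of 14 kinases and regulators of that response 6 were tested, and of 10 scaffold proteins and partners of the synthetases 2 were tested. None of these 8 passed edgeR for HCA (1 at an unadjusted p under 0.05, 0 by DESeq2 or limma voom), with log2 values from -0.47 for the kinase Eif2ak2 to 0.36 for the phosphatase subunit Ppp1r15a. Of 8 genes for selenocysteine tRNA and its insertion 3 were tested, and none passed (0 at an unadjusted p under 0.05, 0 by DESeq2 or limma voom): Pstk stood at 0.48 ± 0.36, Sephs2 at 0.17 ± 0.09 and Eefsec at 0.01 ± 0.17. For selenite at either dose, averaged over HCA, 0 of the 36 rows of these lists, the other synthetases included, passed edgeR's test. At an unadjusted p under 0.05 there were 0 at selenite 0.1 and 1 at selenite 1, and DESeq2 and limma voom called 0.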

How the data were processed

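The authors' deposited table holds estimated counts for 27288 rows in 36 libraries of ribosomal RNA-depleted total RNA. Its name speaks of TPM, which its unequal column sums (34.3 to 56.9 M) contradict. The submitters' processing notes name STAR, Salmon and GRCm38. Versions, settings, annotation release and filter are not given in the sources used here. Members, gene lists and motifs were chosen with earlier results of these data known.

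Counts were rounded to whole numbers. Rows passing edgeR's expression filter (minimum count 10; 25588 rows) were scaled by TMM and fitted with edgeR 4.0.16 (quasi-likelihood) over 6 groups, with no batch term, and Benjamini-Hochberg adjustment over all rows at 0.05; no test is reported for the HCA differences of the 3 chosen rows. SE is the absolute log2 change over the square root of F. Plotted and correlated log2 CPM used a prior count of 2. The alternatives, 14 in all, included limma 3.58.1 (voom) and DESeq2 1.42.0 (R 4.3.3). Labels put 1 library of each group in each culture batch, so batches pair libraries. Over 5000 rows, deviations from group means had a median r of 0.24 within batches (lowest -0.70 of 90 pairs) and -0.03 between batches.

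1 promoter window is not reported here. Rows were assigned to transcripts by a shift of -1 in GENCODE vM21 transcript order, and list genes were read from rows whose coding transcripts were of 1 gene (9555 rows), taking the row of highest mean CPM. Each member, every list gene past the threshold, Cars2, Aars2, Yars2 and Sars, and for each member the 5 most alike rows by each measure were named. Tools were tested on simulated data, where the false calls of edgeR, limma voom and above all DESeq2 came out above the nominal share, many of edgeR's in rows of very high dispersion, so calls close to the threshold are less sure than their adjusted p.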

Additional observations from a re-analysis of the deposited data

Results flagged for a closer look

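In the group with selenite 0.1 alone, the ratio of Cars to Aars counts had 1 library far from the other 5: replicate 5, at 0.221, against 0.157 to 0.172 in the rest, a gap of 0.765 of the group's whole range. That library has the lowest effective size of all, and its Cars count was 13 and its Aars count 59. In the group with HCA alone, the ratio of Yars to Aars in replicate 4 was 0.660, against 0.511 to 0.551 in the other 5, a gap of 0.731 of the range. Its counts were not low. Of 36 groups of values examined with Dixon's test at 95% (the 3 rows and their 3 ratios in 6 groups), these 2 passed, and chance alone gives about 1 in 20.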

How the results depend on the processing

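Each of the 9 HCA differences of the 3 rows kept its direction and moved by less than 1 SD over batches under all 14 alternatives. With the culture batch as a replicate block they were 1.45, 1.24 and 1.20 for Cars, 0.98, 1.01 and 0.75 for Aars and 0.91, 0.78 and 0.62 for Yars. The selenite effects and the changes of the HCA difference passed under no alternative, and those near 0 changed sign: selenite 0.1 on Cars was -0.01 without the 3 libraries of lowest effective size and -0.02 to 0.13 with 1 batch left out, and selenite 1 on Cars was 0.00 without those libraries and -0.02 with effective library size as a covariate. For Aars, selenite 0.1 was 0.03 with limma voom and -0.05 to 0.02 with 1 batch left out, and the change of the HCA difference at 0.1 was -0.03 and -0.05 to 0.14. The 1 other cytosolic gene called higher became 2 with the block, 0 with the covariate and 0 to 1 with 1 batch left out. The 9 other synthetase rows called higher became 5 to 7 with 1 batch left out, the 5 without batch 1. The 1 called lower became 5 with DESeq2, 2 with limma voom, 3 without the 3 libraries and 1 to 2 with 1 batch left out. Over all rows, 58, 41, 39 and 413 calls for HCA against control, at selenite 0.1, at selenite 1 and for their mean became 175, 154, 120 and 1068 with DESeq2. With limma voom they became 35, 67, 98 and 609, and with the block 74, 54, 61 and 571. The causes were not tested. The last 2 alternatives, without the 3 libraries and with the covariate, were added after the data were seen. Low counts in the 3 libraries limit the Cars row most.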
